A study of Homo sapiens with 208 samples.

Results

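Kruppel-like factors are zinc finger transcription factors, and 10 of them were followed here through 2 lung cancer lines, 4 treatments and 24 h. The members are KLF2, KLF3, KLF4, KLF5, KLF6, KLF7, KLF9, KLF10, KLF11 and KLF13. The rule takes every probe whose RefSeq accession belongs to these named genes and uses no measured value, although the family was picked with earlier results of these data known. This gave 16 probes among the 24794 that matched a gene symbol, and 10 genes among 16961. All 10 passed the filter on dim probes, which kept 13263 genes for the tests. KLF2, KLF3, KLF5, KLF6, KLF11 and KLF13 had 2 probes each, and the probe with the larger variance stood for the gene.

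PC9, a line from a human lung adenocarcinoma, is sensitive to gefitinib, an inhibitor of the EGF receptor kinase, and carries an activating deletion in that kinase. PC9GRM2, taken here to be the line called PC9M2 in the study, is 1 clone selected from PC9 by long exposure to gefitinib. It carries the same deletion and lacks both MET amplification and the secondary resistance mutation of EGFR. All cells of both lines were starved for 48 h, and then received no treatment, 0.5 µM gefitinib, 100 ng/ml EGF, or gefitinib and EGF together. Gefitinib was added before EGF, so that the 0 h samples of the gefitinib courses had already met the drug. RNA was taken at 0, 0.5 and 1 h and then every hour to 24 h, and each sample was hybridised once, on one-colour arrays, in 8 courses of 26 time points. In place of replicates the fits used the time points, whose number is given as n. They are neighbours in time from 1 experiment, so the p-values measure the spread between time points only.

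Members of this family share a C-terminal block of zinc fingers that reads GC-rich and CACCC sequences, and they differ in the rest of the protein. KLF2, KLF4, KLF5, KLF6 and KLF7 are mostly activators that bring in acetylases, KLF3 is a repressor that works through CtBP, and KLF9, KLF10, KLF11 and KLF13 bind the SIN3A repressor. Several are known as fast-response genes: KLF2, KLF4 and KLF6 follow growth factors, KLF10 and KLF11 follow TGF-β, and KLF9 follows glucocorticoids. In epithelia KLF4 is tied to differentiation and exit from the cell cycle, KLF5 to proliferation, and KLF6 is often described as a tumour suppressor.

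All values are log2 intensities after quantile normalisation over all arrays, and a difference of 1 is a doubling. A gene was called when limma's moderated test of the paired differences at matched time points gave an adjusted p under 0.05, with Benjamini-Hochberg adjustment over the 13263 genes. Between 24464 and 35938 features were well above background on an array, and no member spot was saturated. Over all features, 183 to 1616 were saturated on a PC9 array and none on any PC9GRM2 array, so that saturation went with the line. The epithelial genes EPCAM, CDH1, KRT7, KRT8, KRT18 and KRT19 were well above background on every array. The lung lineage factor NKX2-1 was so on 13 arrays and the surfactant gene SFTPB on 89. None of 5 fibroblast genes was on more than 31, while the leukocyte gene PTPRC was on 1 and CD14 on all. RNA came from whole cultures, so a smaller share of cells with a transcript and less transcript per cell cannot be told apart.

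Several arrays stood apart. DUSP6, a phosphatase gene that reports the activity of the ERK kinases, separated the PC9 arrays by their labels, with 4.82 to 9.51 under gefitinib and 12.82 to 14.12 without it. In PC9GRM2 at 0.5 h it went against the labels. The array labelled EGF held 7.75 there and the array labelled EGF with gefitinib held 12.54. At the other time points of PC9GRM2 the ranges were 7.51 to 12.15 under gefitinib and 12.00 to 13.91 without it. The untreated KLF2 spot of PC9GRM2 at 17 h read 5.31 between neighbours of 9.84 and 9.83. The untreated arrays of PC9GRM2 at 11 h and of PC9 at 18 h were the untreated arrays farthest from their neighbours in time. Results that changed without these time points are given both ways. Each slide carried the 4 treatments of 1 line at 1 time point, and no scan day held arrays of both lines, so that line and scan day cannot be told apart.

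Gefitinib lowered KLF2, KLF6, KLF7, KLF10 and KLF11 in PC9 and raised KLF3, KLF4 and KLF5, while KLF9 and KLF13 did not pass the test. This was 8 of 10 members, 3 higher and 5 lower, where 72.3% of all tested genes were called, 35.1% higher and 37.2% lower. The share of members called was thus close to that of all genes, and the median member difference was -0.20 against -0.021 over all genes. KLF2, KLF6, KLF7 and KLF11 were the members that fell with gefitinib and rose with EGF in PC9, and the 250 bases before their most upstream RefSeq start (GRCh38.p14) are shown for that reason, 5′ to 3′, with motif matches in capitals. They lie at chr19:16324576-16324825 on the plus strand, chr10:3785210-3785459 on the minus strand, chr2:207167247-207167496 on the minus strand and chr2:10043579-10043828 on the plus strand.
KLF2: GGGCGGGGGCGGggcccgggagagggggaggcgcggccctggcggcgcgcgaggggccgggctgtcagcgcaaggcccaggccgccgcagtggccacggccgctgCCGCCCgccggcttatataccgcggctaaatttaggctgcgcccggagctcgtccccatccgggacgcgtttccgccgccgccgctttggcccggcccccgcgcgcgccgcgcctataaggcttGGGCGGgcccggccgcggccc
KLF6: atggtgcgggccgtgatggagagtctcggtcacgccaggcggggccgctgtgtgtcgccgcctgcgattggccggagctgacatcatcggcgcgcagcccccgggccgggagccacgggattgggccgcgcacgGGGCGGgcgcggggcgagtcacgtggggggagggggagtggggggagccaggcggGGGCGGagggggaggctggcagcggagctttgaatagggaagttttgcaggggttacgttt
KLF7: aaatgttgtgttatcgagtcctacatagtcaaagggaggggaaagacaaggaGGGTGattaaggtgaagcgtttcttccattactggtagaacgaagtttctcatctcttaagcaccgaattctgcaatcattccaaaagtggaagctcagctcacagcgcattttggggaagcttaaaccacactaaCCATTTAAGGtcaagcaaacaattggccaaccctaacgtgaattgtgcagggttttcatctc
KLF11: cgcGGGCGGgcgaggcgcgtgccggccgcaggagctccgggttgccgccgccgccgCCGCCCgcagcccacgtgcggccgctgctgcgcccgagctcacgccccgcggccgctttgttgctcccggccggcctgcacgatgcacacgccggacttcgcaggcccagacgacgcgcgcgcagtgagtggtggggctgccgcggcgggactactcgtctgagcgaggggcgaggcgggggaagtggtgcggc
The capitals in KLF2, KLF6 and KLF11 are GC boxes, GGGCGG read on either strand, with matches that touch shown as 1 run. In KLF7 they are a CACCC match on the minus strand and, 62 bases before the start, a CArG box, the sequence that serum response factor reads. In all, 8 sequence patterns were searched on both strands of 300 bases, 250 before and 50 after each start, in 13 promoters of 8 members. KLF3 and KLF10 were not matched. The GC box stood in 8 of the 13 and in 45% of the 35116 promoters of the table, CACCC in 7 and in 59.9%, and the CRE core TGACGT in 2 and in 7.98%. The CArG box stood in 1, that of KLF7, and in 1.29% of all. The MEF2 core TAAAAAT stood in 1, that of KLF9, and in 6.1%. AP-1 (TGACTCA), ETS (CCGGAAG) and forkhead (GTAAACA) matches were in none of the 13, and in 4.95%, 10.3% and 3.42% of all promoters. GGGCGG and CACCC can overlap other GC-rich letters, and a match describes the letters only.

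KLF2, an activator known as a brake on inflammation and proliferation, had the largest fall of the members in PC9. Without treatment it ran from 8.53 at 9 h over a median of 9.22 to 11.03 at 1 h, with the 16 h spot left out as an outlier. Under gefitinib it ran from 7.34 at 24 h over a median of 7.97 to 8.61 at 16 h. It was lower under gefitinib at all 25 time points measured in both courses, although the ranges over all time points overlapped. The mean difference was -1.50 ± 0.11 (SE, n = 25), or 2.83-fold lower (adjusted p = 2.5e-12). It was widest at 1 h, with -2.88, and narrowest at 7 h, with -0.66. The second KLF2 probe was much dimmer and differed by -0.12. The KLF2 fall was -0.69 with the mean of both probes and -0.94 with normexp background correction, and it was called in both.

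KLF7, an activator known from neurons and from metabolic tissue, fell later. Its untreated course in PC9 ran from 6.81 at 6 h over a median of 7.56 to 9.35 at 24 h, and the gefitinib course from 5.51 at 14 h over a median of 6.70 to 7.43 at 0 h. So the untreated level climbed to its highest value at the last time point, whereas the gefitinib level was highest at the first. The difference was -1.31 ± 0.16 (SE, n = 26), lower at 26 of 26 time points (adjusted p = 5.34e-08), and -0.59 with normexp correction. KLF6 fell by 0.50 ± 0.081 (adjusted p = 3.47e-06), lower at 25 of 26. Its levels had a lowest, median and highest value of 12.40, 13.20 and 14.12 without treatment and 12.18, 12.69 and 13.53 under gefitinib, which overlap.

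Among the SIN3A-binding members, KLF11 and KLF10 fell. KLF11 had a lowest, median and highest level of 7.26, 7.92 and 8.69 without treatment and 6.50, 7.17 and 8.05 under gefitinib. It was lower at all 26 time points, by 0.75 ± 0.062 (adjusted p = 2.37e-11). KLF10 fell by 0.47 ± 0.11 (adjusted p = 0.000304) and was lower at 20 of 26, with -1.74 at 16 h and -1.70 at 17 h. Its levels without treatment peaked at those hours, at 12.84 and 12.94. KLF9 differed by 0.12 ± 0.087 (SE, n = 26), with a 95% interval of -0.057 to 0.30, and KLF13 by 0.077 ± 0.14 (SE, n = 26), with an interval of -0.22 to 0.37. KLF13 was dim, well above background on 13 of 26 untreated PC9 arrays, and its level ran from 2.55 to 5.94.

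KLF3, the CtBP-dependent repressor, had the largest rise. In PC9 it ran from 10.99 at 18 h over a median of 11.60 to 12.73 at 19 h without treatment and from 12.29 at 8 h over a median of 12.57 to 13.38 at 19 h with gefitinib. It was higher at all 26 time points, by 0.95 ± 0.073 (SE, n = 26), or 1.94-fold (adjusted p = 5.15e-12). The second KLF3 probe, which was well above background on all of these arrays, differed by -0.011, so the rise in PC9 rests on 1 of 2 probes. KLF4 rose by 0.40 ± 0.077 (adjusted p = 4.25e-05) and was higher at 22 of 26, and KLF5 rose by 0.33 ± 0.10 (adjusted p = 0.00577) and was higher at 22. For KLF5 the second probe differed by 0.49. With time points 3 h apart, KLF4, KLF5, KLF6 and KLF10 no longer passed (adjusted p of 0.117, 0.0608, 0.0632 and 0.276).

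**Figure D1:**
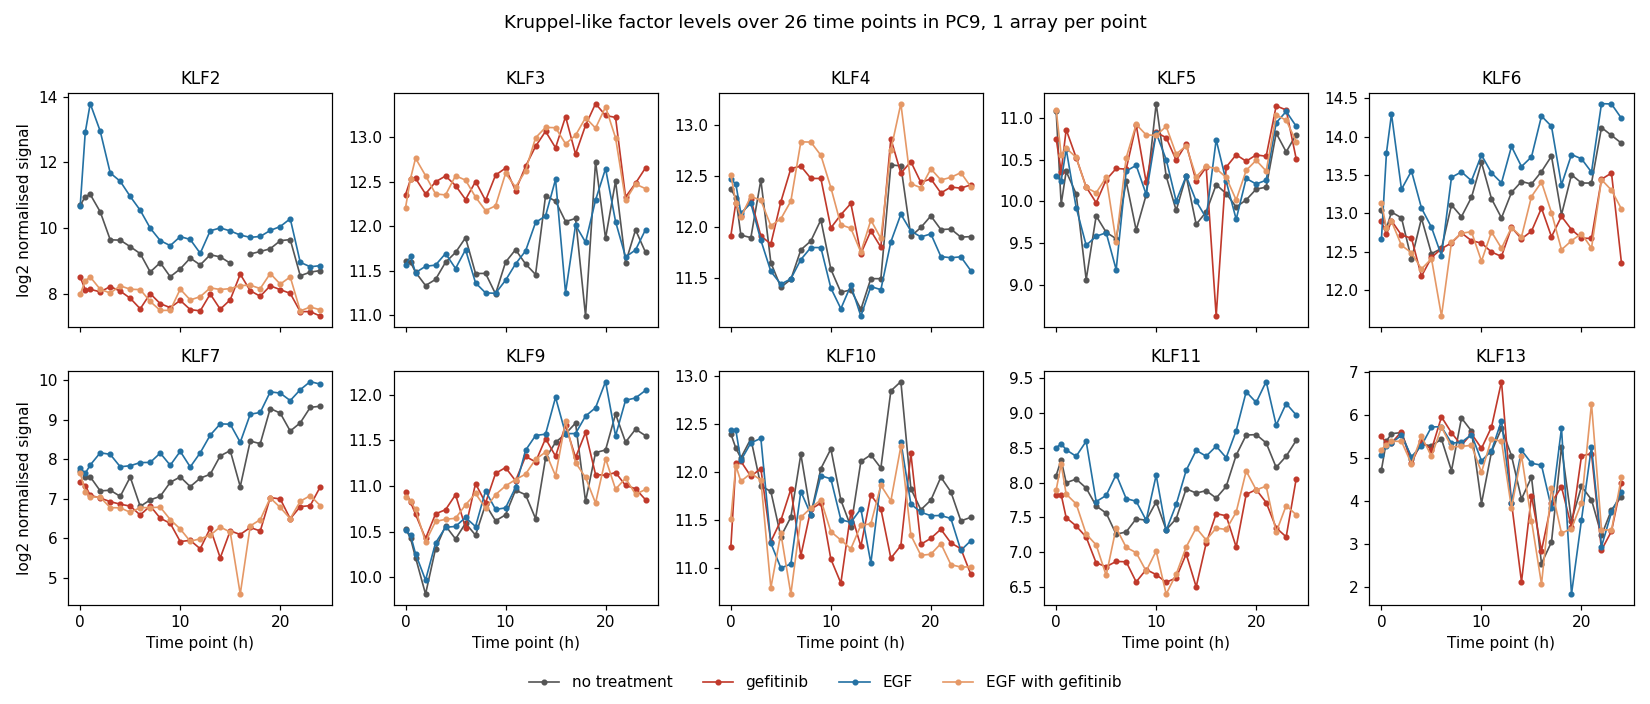
Log2 normalised signal (y axis) of the 10 Kruppel-like factors in PC9 against the time point in h (x axis). Each point is 1 array and each line a treatment course; KLF2 peaks at 13.79 at 1 h with EGF, and the KLF7 courses without gefitinib end above 9.00, those with gefitinib below 8.00.

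The timing of the gefitinib difference in PC9 was compared between an early window of 0 to 4 h, a middle window of 5 to 12 h and a late window of 13 to 24 h. Early and late differed for 5 of 10 members, where 52.3% of all genes were called. KLF2 differed from the untreated cells by -2.21 early, -1.25 in the middle and -1.30 late, so the difference was larger early, by -0.91 ± 0.20 (adjusted p = 0.000324). With the mean of both probes this call was lost (adjusted p = 0.0552). The untreated KLF2 level itself moved, from a mean of 10.57 over the first 5 time points to 9.05 over the last 5. KLF7 went the other way, with -0.27, -0.94 and -2.07 (early minus late 1.80 ± 0.22, adjusted p = 1.22e-07, or 0.87 with normexp). The KLF6 difference was also larger late, with -0.17 early and -0.69 late (adjusted p = 0.0187). Its untreated level rose over the same course, from a mean of 12.84 over the first 5 time points to 13.77 over the last 5. KLF9, whose mean difference did not pass, held 0.41 early and -0.15 late (adjusted p of the difference = 0.0134). KLF4 held -0.051 early, 0.72 in the middle and 0.40 late (adjusted p = 0.00792), and with an early window of 2 h the adjusted p was 0.125. DUSP6 differed by -4.54 early and -7.77 late.

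EGF raised KLF2, KLF6, KLF7, KLF9 and KLF11 in starved PC9 and lowered KLF4 and KLF10. These were 7 of 10 members, 5 higher and 2 lower, where 25.6% of all genes were called, 11.3% higher and 14.3% lower. The median absolute difference of the members was 0.23 against 0.093 over all genes. KLF2 went from 10.68 at 0 h to 12.91 at 0.5 h, 13.79 at 1 h and 12.95 at 2 h with EGF. The untreated cells held 10.70, 10.96, 11.03 and 10.50 at the same times. At 0 h the courses were thus alike, and from 0.5 h on EGF was higher at each time point measured. The mean difference was 0.98 ± 0.14 (SE, n = 25) (adjusted p = 7.06e-06), with 2.19 ± 0.15 from 0.5 to 4 h and 0.53 ± 0.10 from 13 to 24 h. KLF2 alone of the members differed between the early and the late EGF response, by 1.66 (adjusted p = 8.29e-06), where 2.05% of all genes did. The dim second KLF2 probe differed by 0.054 with EGF, and the mean of both probes by 0.61.

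KLF7 was higher in the EGF course at every time point, the 0 h pair included, by 0.67 ± 0.057 (SE, n = 26) (adjusted p = 2.54e-09). From early to late its difference was 0.60, 0.71 and 0.73. Its levels with EGF had a lowest, median and highest value of 7.65, 8.19 and 9.97, against 6.81, 7.56 and 9.35 without. KLF11 rose by 0.43 ± 0.049 (adjusted p = 1.9e-07) and was higher at 24 of 26 time points. With normexp correction the rises were 0.39 for KLF7 and 0.22 for KLF11, both called. KLF6 rose by 0.40 ± 0.067 (adjusted p = 6.18e-05), with a peak difference of 1.28 at 1 h, when it stood at 14.30 with and 13.02 without EGF. KLF9 rose by 0.24 ± 0.059 (adjusted p = 0.00325). The falls were small. KLF10 was lower by 0.22 ± 0.061 (adjusted p = 0.00774) and KLF4 by 0.13 ± 0.048 (adjusted p = 0.0452). KLF4 was not called in 6 of 15 alternative settings (adjusted p up to 0.773), scaling to the 75th percentile among them (adjusted p = 0.0704). KLF3, KLF5 and KLF13 differed by 0.0072, 0.081 and 0.17 (adjusted p of 0.953, 0.367 and 0.448).

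The EGF and untreated samples of 0 h had met the same agents, and their differences show the spread of a pair of arrays. For the members these ran from -0.78 for KLF5 to 0.40 for KLF11 in PC9. In both lines the mean EGF differences and their n include the 0 h pair, which the windows of the EGF response leave out. With the courses not paired by time point, KLF2 remained called with EGF and the other 6 members did not (adjusted p of 0.0852 for KLF11, 0.0725 for KLF7 and 0.0971 for KLF6). With time points 3 h apart, KLF2, KLF7 and KLF11 were still called.

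Under gefitinib EGF moved no member past the test in PC9, where 0.0452% of all genes were called. At an unadjusted p under 0.05, 3 members passed. KLF2, which EGF alone had taken to 13.79 at 1 h, stood at 8.53 with both agents and at 8.15 with gefitinib alone. Its mean EGF difference under gefitinib was 0.16 ± 0.056 (SE, n = 26) (95% interval 0.045 to 0.27, adjusted p = 0.274). For KLF7 it was -0.0079 ± 0.075 (SE, n = 26), with an interval of -0.16 to 0.15, and for KLF11 0.16 ± 0.057 (SE, n = 26), with an interval of 0.043 to 0.28.

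Seen from the EGF side, gefitinib in EGF-stimulated PC9 lowered KLF2, KLF6, KLF7, KLF10 and KLF11 and raised KLF3, KLF4 and KLF5, where 39% of all genes were called higher and 39.9% lower. KLF2 had a lowest, median and highest level of 7.49, 8.15 and 8.63 with both agents and of 8.83, 9.93 and 13.79 with EGF alone, and these ranges did not overlap. Its difference was -2.27 ± 0.21 (SE, n = 26) (adjusted p = 1.42e-10) and reached -5.26 at 1 h, and with the mean of both probes it was -1.32. KLF7 differed by -1.99 ± 0.18, KLF11 by -1.01 ± 0.065, KLF6 by -0.88 ± 0.07 and KLF10 by -0.26 ± 0.057 (adjusted p up to 0.000206). With normexp correction KLF7 differed by -0.96. KLF3 differed by 0.92, KLF4 by 0.62 and KLF5 by 0.30 (adjusted p up to 7.33e-05). The second KLF3 probe differed by 0.012, and the mean of the KLF3 probes by 0.46. The gefitinib difference changed with EGF for 6 of 10 members, where 13% of all genes did so. It was more negative with EGF for KLF2 (-0.80 ± 0.15, adjusted p = 0.000533), KLF7 (-0.68, adjusted p = 3.87e-05), KLF6 (-0.38, 0.00316), KLF9 (-0.32, 0.00364) and KLF11 (-0.27, 0.00751). KLF4 went the other way, with 0.23 (adjusted p = 0.0463). Normexp correction gave -0.37 for KLF7, and KLF11 was not called with normexp or with the mean of its probes (adjusted p of 0.121 and 0.116). None of the 6 passed with courses not paired or with time points 3 h apart (lowest adjusted p of 0.612 and 0.0925).

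In the resistant PC9GRM2, gefitinib lowered KLF2, KLF6, KLF7, KLF9, KLF10 and KLF11 and raised KLF3 and KLF5. These were 8 of 10 members, where 66.7% of all genes were called, 32.6% higher and 34.2% lower. KLF11 had a lowest, median and highest level of 6.43, 7.27 and 8.14 without treatment and 5.67, 6.47 and 7.38 with gefitinib, and was lower at 25 of 26 time points. The fall was 0.72 ± 0.084 (adjusted p = 1.94e-08). The second KLF11 probe differed by -0.65 here and by -0.73 in PC9.

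KLF7 in PC9GRM2 ran from 4.34 at 3 h over a median of 6.35 to 7.38 at 24 h without treatment and from 4.73 at 13 h over a median of 5.48 to 6.39 at 10 h with gefitinib. Its difference was -0.80 ± 0.18 (SE, n = 26) (adjusted p = 0.000369), with 0.18 early, -0.22 in the middle and -1.68 late. The early and late values differed by 1.86 ± 0.26 (adjusted p = 2.29e-06). With the variance inflated for the correlation of neighbouring time points, the mean fall of KLF7 did not pass (adjusted p = 0.275), nor did it with time points 3 h apart (adjusted p = 0.0598). With normexp correction it was -0.22 and early minus late 0.45, both called.

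KLF9, the glucocorticoid-responsive member, was lower with gefitinib at 25 of 26 time points in PC9GRM2, by 0.47 ± 0.066 (adjusted p = 4.24e-07). Its difference was -0.15 early and -0.74 late (adjusted p of the change = 0.00015). KLF10 fell by 0.37 ± 0.12 (adjusted p = 0.00869). The lowest KLF10 values of the gefitinib courses lay at 0 h, with 8.16 under gefitinib and 8.72 with both agents against 10.62 untreated and 10.50 in the EGF course. At 3 h the untreated and gefitinib values were 10.43 and 10.01. KLF10 lost its call with a random block for scan day, with the inflated variance or with time points 3 h apart (adjusted p of 0.0507, 0.0851 and 0.0675).

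KLF2 fell by 0.50 ± 0.17 in PC9GRM2 (adjusted p = 0.0126), and by 0.67 without the 17 h time point (adjusted p = 4.26e-09). It was lower at 24 of 26 time points, and with a random block for scan day it was not called (adjusted p = 0.0802). The mean of both KLF2 probes differed by -0.31. The early and late windows held -0.32 and -0.41, a difference that was not called (adjusted p = 0.904) with 17 h but was without it (early minus late 0.46, adjusted p = 0.0184). KLF6 fell by 0.21 ± 0.06 (adjusted p = 0.00317), with 0.053 early and -0.34 late (adjusted p of the change = 0.0224). KLF3 rose by 0.68 ± 0.065 and was higher at 25 of 26 (adjusted p = 4.03e-10), and here its second probe differed by 0.59. KLF5 rose by 0.42 ± 0.074 (adjusted p = 1.25e-05). KLF4 had a mean difference of 0.061 ± 0.094 (SE, n = 26), with an interval of -0.13 to 0.26, that joined 0.39 early and 0.45 in the middle to -0.36 late (adjusted p of the change = 0.000216). Early and late differed for 4 of 10 members, KLF4, KLF6, KLF7 and KLF9, where 39.2% of all genes were called.

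**Figure D2:**
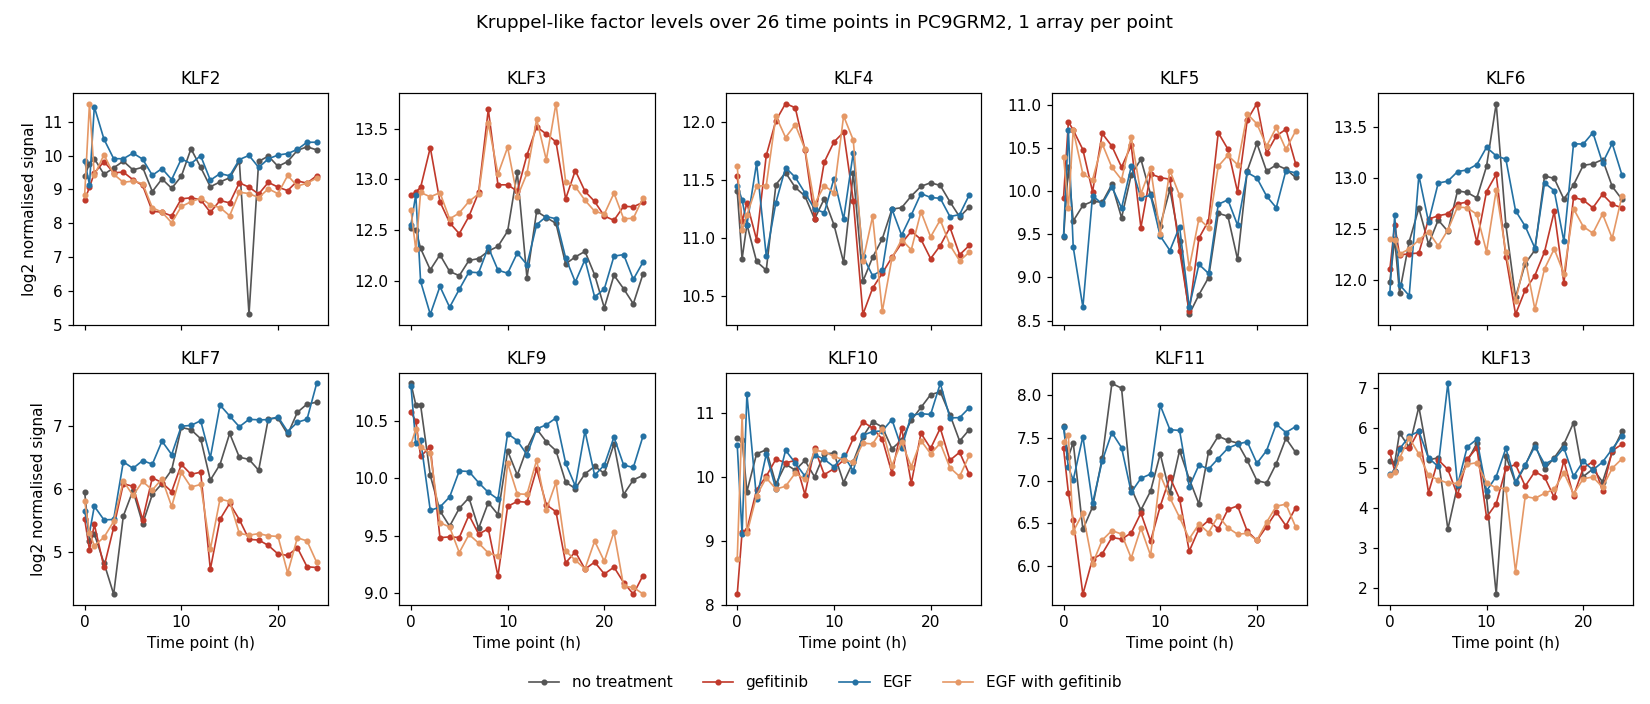
Log2 normalised signal (y axis) of the 10 Kruppel-like factors in PC9GRM2 against the time point in h (x axis), 1 array per point and 1 line per treatment. The untreated KLF2 point of 5.31 at 17 h and the crossed EGF points at 0.5 h stand out, and KLF7 with gefitinib ends at 4.76 against 7.38 untreated.

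KLF7 was the member that rose with EGF in PC9GRM2, where 9.13% of all genes were called. The rise was 0.37 ± 0.076 (SE, n = 26), seen at 22 of 26 time points (adjusted p = 0.00169), and the unpaired fit gave an adjusted p of 0.976. With normexp correction the rise was 0.094. KLF2 differed by 0.42 ± 0.18 (SE, n = 26) (adjusted p = 0.158) and by 0.25 without the 17 h time point (adjusted p = 0.0579). Its EGF course read 9.85 at 0 h, 9.14 at 0.5 h, 11.45 at 1 h and 10.49 at 2 h. The array labelled EGF with gefitinib read 11.54 at 0.5 h between 8.83 at 0 h and 9.41 at 1 h. KLF10 on the same 0.5 h arrays read 9.11 with the label EGF and 10.96 with the label EGF with gefitinib. Without the 0.5 h time point KLF9 was also called (difference 0.12, adjusted p = 0.0498), and without the 11 h and 18 h time points KLF6 was (difference 0.19, adjusted p = 0.0298). No member differed between the early and late EGF response, where 0.392% of all genes did, and 2 members passed at an unadjusted p under 0.05.

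Under gefitinib no member of PC9GRM2 was called with EGF, where 3.21% of all genes were called, and 1 member passed at an unadjusted p under 0.05. With EGF present, gefitinib lowered KLF2, KLF6, KLF7, KLF9, KLF10, KLF11 and KLF13 and raised KLF3 and KLF5 in PC9GRM2, where 36.7% of all genes were called higher and 37.8% lower. KLF7 differed by -1.10 ± 0.15 (adjusted p = 2e-07), KLF2 by -0.89 ± 0.14 (adjusted p = 2.1e-06) and, without the 0.5 h time point, by -1.02. Normexp correction gave -0.29 for KLF7 and the mean of both probes -0.45 for KLF2. KLF13 differed by -0.59 ± 0.12 (adjusted p = 5.44e-05), while its dimmer second probe differed by -0.13, scaling to the 75th percentile gave -0.39 and normexp correction -0.092. The gefitinib difference was more negative with EGF for KLF6 (-0.25, adjusted p = 0.0324) and KLF7 (-0.30, adjusted p = 0.0238), 2 of 10 members where 10.1% of all genes were called. With normexp correction KLF7 was not called here (adjusted p = 0.0613).

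The gefitinib responses of the lines differed for 6 of 10 members, where 34% of all genes differed. In each case the tested value is the response in PC9GRM2 minus that in PC9. KLF2 fell less in PC9GRM2, with a difference of 1.00 ± 0.21 (SE, n = 25) (adjusted p = 0.000459), and 0.84 without the 17 h time point. With the mean of both KLF2 probes it was 0.38 and not called (adjusted p = 0.102), and with normexp correction it was 0.52. The response was less negative at each of the 25 time points measured in both lines. KLF7 and KLF6 also fell less, with 0.51 ± 0.11 (adjusted p = 0.000471) and 0.29 ± 0.093 (adjusted p = 0.0175). KLF7 was dim in PC9GRM2, with a mean of 5.48 under gefitinib, where 24 of 26 arrays were well above background. Whether this limited its fall was not tested. With time points 3 h apart the KLF6 value was 0.16 and not called (adjusted p = 0.682). The KLF9 response was more negative, by -0.59 ± 0.074, at all 26 time points (adjusted p = 5.25e-07). The KLF4 response was less positive in PC9GRM2, with -0.33 ± 0.12 (adjusted p = 0.033). For KLF3 the difference was -0.27 ± 0.092 (adjusted p = 0.0219), and 0.16 with the mean of its probes, which turns the sign. It was also not called without the 11 h and 18 h time points (adjusted p = 0.0541). For KLF11 the responses differed by 0.029 ± 0.11 (SE, n = 26), with an interval of -0.20 to 0.25. The fall of DUSP6 was smaller in PC9GRM2 by 4.64 ± 0.46 (adjusted p = 1.64e-08), with a gefitinib difference of -6.80 in PC9 and -2.17 in PC9GRM2. In PC9GRM2 the DUSP6 difference was -3.98 early and -1.59 late. EGR1, an immediate-early gene downstream of ERK, had a gefitinib difference of -3.78 ± 0.18 (adjusted p = 2.74e-16) in PC9, while the PC9GRM2 value, 0.60 ± 0.31, was not called (adjusted p = 0.0906). That PC9GRM2 mean of EGR1 joined -1.21 early to 1.87 in the middle and 0.65 late (adjusted p of early minus late = 0.0141).

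**Figure D3:**
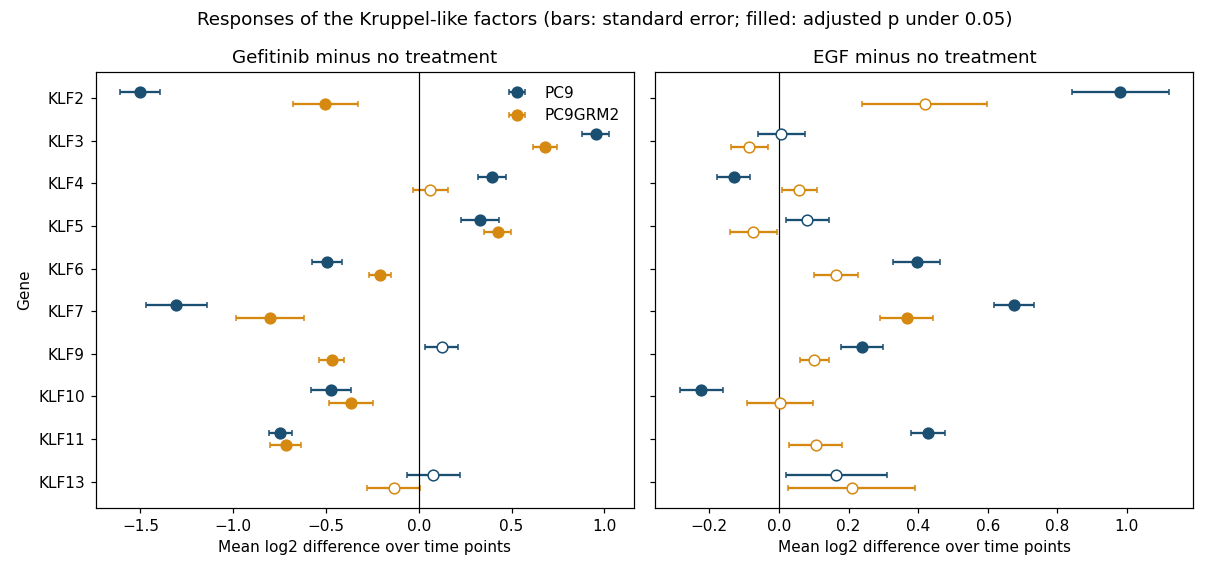
Mean log2 difference over the time points (x axis) for each Kruppel-like factor (y axis), gefitinib minus no treatment on the left and EGF minus no treatment on the right, in PC9 and PC9GRM2. Bars are 1 standard error and filled points have an adjusted p under 0.05; KLF2 sits at -1.50 in PC9 and -0.50 in PC9GRM2 with gefitinib.

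**Figure D4:**
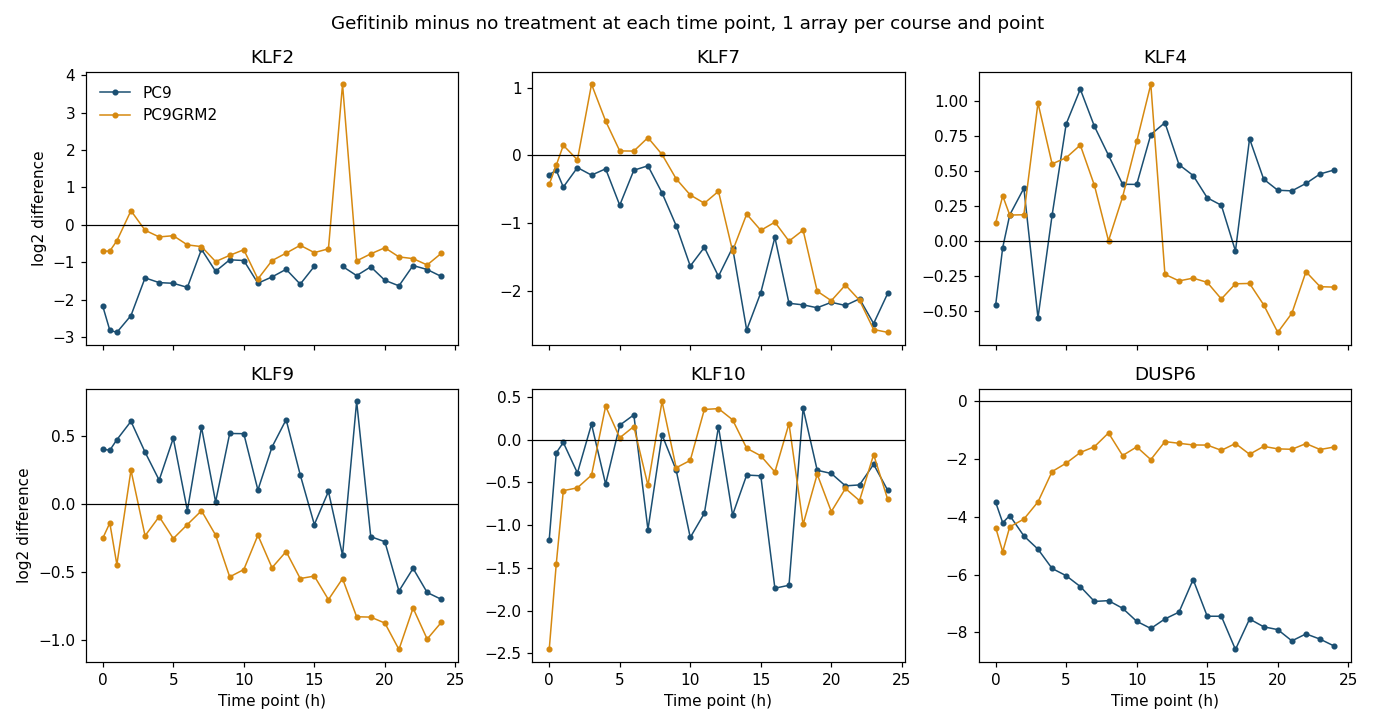
Log2 difference, gefitinib minus no treatment (y axis), at each time point in h (x axis) for KLF2, KLF7, KLF4, KLF9, KLF10 and the ERK-dependent gene DUSP6, 1 line per cell line and 1 pair of arrays per point. DUSP6 falls further with time in PC9 and returns towards 0 in PC9GRM2, whereas KLF7 falls with time in both lines; the KLF2 point of 3.76 at 17 h in PC9GRM2 rests on the outlying untreated spot.

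The EGF responses differed between the lines for KLF7, which was the member called where 1.33% of all genes were called. The rise was smaller in PC9GRM2 by 0.31 ± 0.068 (adjusted p = 0.0146). KLF2 differed by -0.55 ± 0.23 (SE, n = 25), which was not called (adjusted p = 0.295), and by -0.74 without the 17 h time point, which was (adjusted p = 0.00364). KLF11 differed by -0.32 ± 0.098 (adjusted p = 0.106), and by -0.37 without the 11 h and 18 h time points (adjusted p = 0.0456).

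At matched time points PC9GRM2 held less KLF4, KLF6, KLF7, KLF9, KLF10 and KLF11 than PC9 under all 4 treatments. Without treatment 1 member was higher and 7 were lower, where 31.1% of all genes were higher and 37% lower. Under gefitinib 2 were higher and 6 lower (30.7% and 34.3% of all genes), with EGF 2 and 7 (32.8% and 37%), and with both agents 2 and 7 (31.5% and 36.2%). KLF10 was lower at all time points under each treatment, by 1.44 untreated, 1.33 under gefitinib, 1.20 with EGF and 1.28 with both (adjusted p up to 7.06e-08). Its untreated levels had a lowest, median and highest value of 11.33, 11.90 and 12.94 in PC9 and 9.77, 10.50 and 11.34 in PC9GRM2, so that the ranges met at their ends. KLF7 was lower by 1.62 ± 0.12 untreated and 1.93 ± 0.11 with EGF, at all 26 time points in both, and by 1.11 under gefitinib and 1.03 with both agents (adjusted p up to 1.16e-06). KLF7 was dim in PC9GRM2, and with normexp correction these differences were -0.65, -0.94, -0.27 and -0.28, all called. KLF9 was lower by 0.86, 1.45, 0.99 and 1.34 under no treatment, gefitinib, EGF and both (adjusted p up to 4.35e-07).

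KLF4 was lower in PC9GRM2 by 0.68, 1.01, 0.49 and 1.08 in the same order (adjusted p up to 3.79e-06), and KLF6 by 0.54, 0.25, 0.77 and 0.35 (adjusted p up to 0.0228). The second KLF6 probe, which was well above background on every array, differed by -0.083 under gefitinib and -0.09 with both agents, and by -0.38 and -0.59 without treatment and with EGF. The KLF6 call in the gefitinib courses was lost with scan day as a block, with time points 3 h apart and with the inflated variance (adjusted p up to 0.125 under gefitinib and 0.254 with both agents), and under gefitinib also with the mean of both probes (adjusted p = 0.104). KLF11 was lower by 0.72, 0.69, 1.05 and 0.82 (adjusted p up to 3.71e-06). With its brighter second probe the KLF11 differences were -0.22, -0.14, -0.35 and -0.27, and the difference under gefitinib was not called with that probe (adjusted p = 0.111). With normexp correction KLF11 differed by -0.10 without treatment and -0.08 under gefitinib, neither of which was called, and by -0.27 with EGF and -0.15 with both agents, which were. KLF2 did not differ past the test without treatment (0.086 ± 0.22, adjusted p = 0.742) or with EGF (-0.44 ± 0.22, adjusted p = 0.0805). Its dim second probe was higher in PC9GRM2 in both, by 0.64 and 0.48, which turns the sign with EGF, and with the mean of both probes the untreated difference was called (0.48, adjusted p = 0.0187). Under gefitinib it was higher in PC9GRM2 at all 26 time points, by 1.07 ± 0.096 (adjusted p = 7.06e-11), and with both agents by 0.95 ± 0.12 (adjusted p = 9.9e-08). With normexp correction these were 0.62 and 0.60.

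KLF3 was higher in PC9GRM2 by 0.52, 0.24, 0.42 and 0.25 in the same order (adjusted p up to 0.0243). Its second probe went the other way without treatment (-0.55), with EGF (-0.61) and with both agents (-0.13), so the direction for KLF3 depends on the probe. KLF5 was lower by 0.33, 0.48 and 0.28 without treatment, with EGF and with both (adjusted p of 0.0255, 0.000886 and 0.0261) and by 0.23 under gefitinib, which was not called (adjusted p = 0.167). Its brighter second probe was higher in PC9GRM2 under all 4 treatments, by 0.19 to 0.35. The sign also turned with normexp background correction, after which the probe was chosen anew. For KLF5 this cannot be told apart from the choice of probe. KLF13 was higher with EGF alone, by 0.46 ± 0.18 (adjusted p = 0.0254), and was called without treatment only when the 11 h and 18 h time points were left out (difference 0.58, adjusted p = 0.0185) or with a floor of 16. Its call with EGF was lost with the mean of its probes, with normexp, with scan day as a block, without pairing and with both allowances for neighbouring time points (adjusted p from 0.0517 to 0.225).

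**Figure D5:**
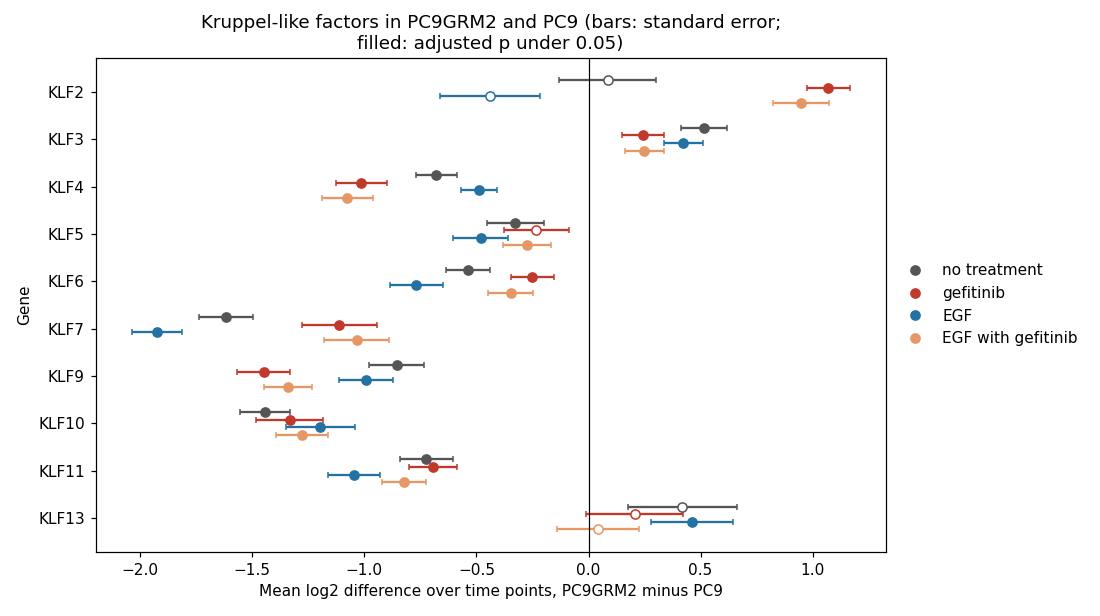
Mean log2 difference over the time points, PC9GRM2 minus PC9 (x axis), for each Kruppel-like factor (y axis) and treatment. Bars are 1 standard error and filled points have an adjusted p under 0.05. KLF7, KLF9, KLF10 and KLF11 sit below -0.50 under each treatment, and KLF2 is above 0.5 only in the gefitinib courses.

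Levels also moved with time in the untreated, starved cells. A spline of time was called for 9 of 10 members in PC9, KLF3 being the exception, where 66.3% of all genes were called. The 9 include the dim KLF13, well above background on 13 of 26 of these arrays. Its fitted range of 1.62 was 0.18 in the alternative that gave the lowest value. In PC9GRM2 the spline was called for KLF3, KLF5, KLF6, KLF7, KLF9 and KLF10, where 67.2% of all genes were called. In PC9, KLF2 had a mean of 10.57 over the first 5 time points and of 9.05 over the last 5 (adjusted p = 2.02e-08). KLF7 went from 7.45 to 9.10 (adjusted p = 1.18e-08), KLF9 from 10.26 to 11.57 (adjusted p = 9.48e-07) and KLF6 from 12.84 to 13.77 (adjusted p = 4.55e-05). In PC9GRM2 KLF7 went from 5.12 to 7.19 (adjusted p = 1.12e-06) and KLF10 from 10.35 to 10.98 (adjusted p = 0.000339). KLF9 stood at 10.82 at 0 h and reached its lowest value of 9.56 at 7 h (adjusted p = 9.4e-06). Without the 17 h time point KLF2 was called in PC9GRM2 (adjusted p = 0.0236) and KLF6 was not (adjusted p = 0.0617), and without the 18 h time point KLF3 was called in PC9 (adjusted p = 0.00104). KLF5 was not called in PC9 with its brighter probe or with normexp, after which the probe was chosen anew (adjusted p of 0.178 and 0.175). Time and slide cannot be told apart in a course, since each time point of a line had a slide of its own, and with time points 3 h apart no member was called in either line. KLF5 in PC9GRM2 was lowest at 13 h without treatment (8.57), with gefitinib (8.61) and with both agents (9.11), and stood at 8.66 with EGF. These 4 arrays shared a slide.

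Ordered by mean level, the 8 courses of a member differed by 0.64 in all for KLF13 and by 3.09 for KLF7. KLF7 was highest in PC9 with EGF, at 8.58 ± 0.78 (SD, n = 26), then in untreated PC9, at 7.90 ± 0.80. The step from there to PC9GRM2 with EGF, at 6.65 ± 0.64, was the only one of its 7 steps wider than the SD over time of either neighbour. KLF2 was highest in PC9 with EGF, at 10.34 ± 1.27, and lowest in PC9 with gefitinib, at 7.91 ± 0.34. Its single step beyond the SD lay between PC9GRM2 with gefitinib and the PC9 courses with gefitinib. KLF10 had its widest step, 0.94, between all PC9 and all PC9GRM2 courses. KLF3, KLF4, KLF9 and KLF11 had 2 steps beyond the SD, and KLF5, KLF6 and KLF13 had none, so the order of their neighbouring courses was within the spread over time.

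The genes around the family were read from fixed lists. Over all genes, gefitinib called 35.1% higher and 37.2% lower in PC9 and 32.6% and 34.2% in PC9GRM2, and EGF in PC9 called 11.3% higher and 14.3% lower, and the list counts are to be read against these shares. Of the other family members 10 of 15 were tested, and gefitinib in PC9 raised 2 and lowered 5 of them, with a median difference of -0.074. KLF8, a CtBP-binding repressor, rose by 1.84 ± 0.14, while SP4 fell by 1.74, KLF17 differed by -1.49 and the general activator SP1 by -0.60, which were called as well. SP4 and KLF17 passed the background flag on 16 and 21 of the 26 gefitinib arrays. In PC9GRM2 1 rose and 3 fell, with KLF8 at 0.80 and SP1 at -0.21. With EGF in PC9, none rose and 2 fell.

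Of 17 tested cofactors and turnover factors of these proteins, 7 rose and 4 fell with gefitinib in PC9 (median 0.078 against -0.021 over all genes), and 5 rose and 3 fell in PC9GRM2. The ubiquitin ligase gene FBXO32, itself a known target of FOXO factors, rose by 1.91 ± 0.078 and the ligase gene BTRC by 0.69 ± 0.086, whereas the deubiquitinase gene USP10 fell by 1.04. The acetylase gene KAT2B was called higher but passed the background flag on 6 of 26 untreated and 21 of 26 gefitinib arrays of PC9. With values under the background limit set to that limit, its means were 4.53 and 4.69. Of 17 tested genes that act upstream of the family, 6 rose and 8 fell in PC9 (median -0.078) and 6 rose and 5 fell in PC9GRM2. The TGF-β receptor gene TGFBR1 fell by 1.52, and FOXO4, FOXO1 and the glucocorticoid receptor gene NR3C1 rose by 1.33, 0.96 and 0.82. TGFBR1 passed the background flag on 19 of the 26 gefitinib arrays of PC9. EGF in PC9 raised 4 of the 17 and lowered none.

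Of 26 tested genes known as targets of the family, 10 rose and 11 fell with gefitinib in PC9 (median -0.021), and 10 rose and 12 fell in PC9GRM2. The KLF2 target S1PR1, a lipid receptor gene, was called higher while KLF2 fell. It passed the background flag on 5 untreated and 26 gefitinib arrays of PC9, and with values under the background limit set to that limit its means were 4.31 and 6.00. KRT4, an epithelial keratin gene known as a KLF4 target, rose by 2.00 ± 0.22. The polyamine enzyme gene ODC1 fell by 2.67 and the cyclin gene CCNE1 by 2.53. All 12 genes of a list induced by ERK signalling fell with gefitinib in PC9 (median -3.38 against -0.021 over all genes) and 9 of 12 in PC9GRM2 (median -1.07). DUSP6 fell by 6.80, and SPRY4, which passed the background flag on 20 of 26 gefitinib arrays, had a difference of -4.99 in PC9. ETV5 and FOSL1 passed the background flag on 11 and 10 of 26 gefitinib arrays. Set to the background limit where they were under it, their gefitinib means were 5.30 and 4.65, against untreated means of 8.97 and 8.17. EGF in PC9 raised 7 of the 12, where 11.3% of all genes were called higher. Of 7 glucocorticoid receptor targets 4 rose and 3 fell in PC9, with TSC22D3 at 2.52, SGK1 at 0.77, ERRFI1 at -2.10 and FKBP5 at -1.51, and 4 rose and 2 fell in PC9GRM2. Gene-wise adjusted p-values were under 0.05 for every list gene said to have risen or fallen, and the lists were not tested as sets.

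The genes outside the family whose log2 values followed a member most closely over all arrays, after the mean of each line was removed, are a description, since the arrays share treatments, slides and time. KLF7 was followed by SCNN1G (r = 0.92), a sodium channel subunit gene, and MAPK9 (r = 0.90), a stress kinase gene. KLF3 was followed by PCMTD2 and CILK1 (r = 0.89 for both), KLF11 by PDXK and EDEM1 (r = 0.83 for both), and KLF2 by THBD (r = 0.81) and CLCF1 (r = 0.78). THBD, the thrombomodulin gene, is also on the list of known targets, and fell by 1.84 with gefitinib in PC9. For KLF6 the closest were VPS13A and SLC4A7 (r = 0.78 and 0.75), for KLF5 GATAD1 and STAG2 (0.76 and 0.75), for KLF4 DELE1 and JUP (0.75 and 0.74) and for KLF10 MED17 and HPS3 (0.70 and 0.69). The closest genes to the dim KLF13 were ANKRD33 and OR52K2 (0.74 and 0.72). Among the members themselves the closest pair was KLF7 and KLF11 (r = 0.75). The closest member to KLF6 was KLF7 (r = 0.65) and the closest to KLF2 was KLF11 (r = 0.55).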

How the data were processed

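The arrays are one-colour Agilent 44K whole human genome arrays. The authors deposited, for each array, processed signal intensities as the scanner software wrote them, background-subtracted and not normalised between arrays, with its flags. Per the file headers this was Feature Extraction 10.5.1.1, while the methods name another version. The deposited table of intensities, which the authors quantile normalised, served as an alternative.

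Here, in R 4.3.3 with limma 3.58.1, the deposited signal intensities of non-control features were quantile normalised over all arrays, given a floor of 1 and log2 transformed. Spots marked as outliers were removed and spots of a probe averaged. Symbols came from RefSeq accessions (24794 of 41000 probes matched). The probe with the largest variance stood for a gene, as in the methods, and genes entered the tests when that probe passed the background flag on 13 or more of the 26 time points of any course.

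Courses were compared with limma's moderated test of log2 differences paired by time point, two-sided, with Benjamini-Hochberg adjustment over 13263 genes at 0.05, and 22 comparisons were made. The 4 treatments of a line at a time point shared a slide, which is where the pairing within a line comes from; between the lines it is by time alone. Time was tested with a natural cubic spline of 4 degrees of freedom. The tests were tried on simulated data. The members, lists and comparisons were chosen with earlier results of these data known. The genes named are all members, DUSP6 and EGR1 as genes of ERK signalling, the 2 closest followers of each member (those of KLF9 are not reported here), and from each list up to 4 genes with the largest gefitinib difference in PC9; KLF8 in PC9GRM2, SP1 in PC9GRM2 and THBD values were added after they were seen. Having 1 array per time point limits the precision.

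Alternative settings were the 75th percentile as the scale, normexp (offset 50) on the median foreground and background signals, the deposited table, the brightest probe, the mean of all probes, no filter, a filter on all 26 arrays, a floor of 16, outlying points replaced from a spline, the methods' t-test, a one-sided test between the lines, no pairing, a variance inflated for autocorrelation, time points 3 h apart, scan day as a random block, splines of 3 and 6 degrees of freedom and an early window of 2 h. With another scale, normexp, the deposited table or a floor of 16, the probe with the largest variance was chosen anew. Leaving out 0.5 h or 17 h of PC9GRM2, or 11 h of PC9GRM2 with 18 h of PC9, was added after seeing the data.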

Additional observations from a re-analysis of the deposited data

Results flagged for a closer look

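The gefitinib response differed between PC9GRM2 and PC9 by the test of the difference itself for KLF2 (1.00), KLF3 (-0.27), KLF4 (-0.33), KLF6 (0.29), KLF7 (0.51) and KLF9 (-0.59), each as the log2 response in PC9GRM2 minus that in PC9. The EGF response differed for KLF7 (-0.31). The tests of early against late time points set apart the EGF response of KLF2 in PC9 (1.66). They also set apart the gefitinib responses in PC9 of KLF2 (-0.91), KLF4 (-0.45), KLF6 (0.51), KLF7 (1.80) and KLF9 (0.56), and in PC9GRM2 of KLF4 (0.76), KLF6 (0.39), KLF7 (1.86) and KLF9 (0.59), each as early minus late on the log2 scale. Courses of 26 points were too long for the search for a single outlying sample.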

How the results depend on the processing

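The numbers of members called were within 1.5 times those given under scaling to the 75th percentile, the deposited table, the brightest probe, both other filters, the floor of 16, the t-test, the one-sided test and both other splines. Without the pairing by time point, the members called dropped to 1 for EGF in PC9, 0 for EGF in PC9GRM2, 0 for the EGF responses of the lines, 0 for early against late EGF in PC9, 2 for early against late gefitinib in PC9GRM2, 2 for the gefitinib responses of the lines, and 0 and 0 for the change of the gefitinib response with EGF in PC9 and PC9GRM2. With time points 3 h apart they were 3 and 0 for EGF in PC9 and PC9GRM2, 0 and 2 for the EGF and gefitinib responses of the lines, 1 for EGF under gefitinib in PC9GRM2 (KLF13), 0 and 0 for time, 4 for gefitinib in PC9, and 0 and 0 for its change with EGF; this setting was not run for the windows. An inflated variance gave 0 for EGF in PC9GRM2, 0 for the EGF responses and 0 for the change with EGF in PC9GRM2. Normexp correction gave 2, 3 and 1 for the same comparisons. Outliers replaced from a spline gave 3 for EGF in PC9GRM2 and 2 for the EGF responses, the mean of all probes 2 for EGF in PC9GRM2, scan day as a random block 3 for time in PC9GRM2, and the early window of 2 h 2 for early against late EGF in PC9GRM2. EGF in PC9GRM2 gave 2 without 11 h and 18 h and 2 without 0.5 h, and the EGF responses gave 2 without 11 h and 18 h and 2 without 17 h.

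Signs turned for KLF3 with the mean of its probes, to -0.094 with EGF and -0.016 without treatment between the lines and 0.16 for the gefitinib responses. For KLF5 between the lines they turned with normexp to 0.19, 0.26, 0.31 and 0.34 under EGF, both agents, no treatment and gefitinib, with the brightest probe to 0.19, 0.24, 0.29 and 0.35, and with the mean of its probes to 0.017 under both agents. For KLF3 and KLF5 the signs turned with the choice of probe. The probe was chosen anew after normexp, so for KLF5 normexp and the choice of probe cannot be told apart. Elsewhere the cause was not tested. No alternative gave a different median over all genes by more than 0.1 in a comparison of courses. The offset that normexp adds shrinks the differences of dim probes by construction. Signal over background limits KLF13, KLF7 in PC9GRM2 and the second probe of KLF2. KLF13 ranged from 13 of 26 untreated PC9 arrays well above background to 24 of 26 PC9GRM2 arrays with EGF.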
